A study of Homo sapiens with 4 samples.

Results

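The forkhead (FOX) genes were examined in GIST-T1 cells, a long-established line grown from a human gastrointestinal stromal tumor (GIST), after ectopic miR-34a expression. A probe was taken as a forkhead probe when its gene name on the array ran from FOXA to FOXS followed by a number, whatever its signal. This rule gave 60 probes with 45 gene names, of the 50599 probes with 36337 names on the array. They are 44 forkhead genes and FOXP1-IT1, a noncoding transcript from an intron of FOXP1. FOXP1, FOXN2 and FOXM1 were of particular interest.

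Cells (3000000 per transfection) received by nucleofection 100 pmol of either a mirVana miR-34a mimic, a synthetic RNA that stands in for the mature miRNA, or the mirVana miRNA mimic Negative Control #1, an RNA made to have no target. Both conditions used the same line in the same medium, and total RNA was taken 48 h later. There were 2 arrays per condition, and the question was which transcripts differ in level when miR-34a is supplied. No source says that the arrays of a condition came from separate cultures, so each p-value measures the spread between these arrays, which may be technical.

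Forkhead proteins share a winged-helix domain that binds DNA, and they either switch genes on or hold them off. The FOXP proteins pair with one another and recruit corepressors, FOXM1 drives the genes of mitosis together with B-MYB and the MuvB complex, and the FOXO proteins are kept out of the nucleus by AKT and respond to stress and loss of growth factors. miR-34a is induced by p53 and lowers the level of mRNAs that pair with its seed. Interstitial cells of Cajal, the gut pacemaker cells that GISTs resemble, depend on the receptor tyrosine kinase KIT.

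The signal is the log2 processed intensity of a probe minus the 75th percentile of its array, so values can be set against each other within a probe and not between probes. A probe was called detected on an array when the scanner software marked it well above background. Between 41.8% and 45.2% of all probes were detected on an array, and the control arrays had the higher shares (43.2% and 45.2%) and the mimic arrays the lower (43.1% and 41.8%). As a check of the cell type, 9 of 9 markers of GIST and interstitial cells of Cajal, among them KIT, ANO1 and ETV1, were detected on all 4 arrays. Of 11 markers of epithelium, leukocytes, endothelium, smooth muscle and Schwann cells, 3 (EPCAM, CD14 and DES) were detected on all 4 arrays and 5 (CDH1, PECAM1, MYH11 and SOX10 among them) on none.

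The next sequences show what was supplied and what was read. The first is the mature miRNA, from RefSeq (GRCh38.p14, chr1:9151735-9151756, minus strand), with the seed, bases 2 to 8, in capitals. The second is the FOXP1 probe with the strongest signal of its gene (hg19, chr3:71008408-71008467, minus strand). The third is the end, bases 31 to 60, of a FOXN3 probe (hg19, chr14:89623105-89623163, minus strand), the 1 forkhead probe of 60 that held ACTGCCA, in capitals here. Its letters ACTGCC pair with bases 2 to 7 of miR-34a, and its last A stands opposite the first base.
hsa-miR-34a-5p: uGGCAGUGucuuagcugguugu
FOXP1 probe: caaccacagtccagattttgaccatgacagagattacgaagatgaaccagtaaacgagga
FOXN3 probe: cattcacactcagtacttaatACTGCCAta
The full seed match, CACTGCC, stood in 0 of the 60 forkhead probes and in 220 of all 50599 probes (0.435%), and ACTGCCA stood in 199 of all probes (0.393%). Each probe covers 60 bases of its transcript, and the rest of the transcripts was not searched.

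Of the 45 names, 28 had at least 1 probe that could be tested, meaning detected on both arrays of at least 1 condition, and these had 39 tested probes. A decrease of more than 1.5-fold was seen for 6 of the 39 forkhead probes, against 4.8% of the 21474 tested probes on the array, and an increase of more than 1.5-fold for 2, against 2.11%. Among the 6 were both probes of FOXN2 and 1 each of FOXP1, FOXH1 and FOXN3, and the 2 belonged to FOXQ1 and FOXB1. The median difference over the 39 probes was -0.03 on the log2 scale, beside -0.01 over all tested probes, and 23 of the 39 probes lay within 0.2 of zero. With 1 probe per gene, the lower and upper quartiles of all 16192 genes were -0.17 and 0.14. Most genes on the array thus lay within 0.2 of zero too. Their exact share was not counted, so the 23 do not set the forkhead probes apart. Among the probes detected on all 4 arrays, which hold the same 6 and 2 forkhead probes, 2.55% of all probes were lower and 1.42% higher by more than 1.5-fold.

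None of these differences passed limma with Benjamini-Hochberg adjustment over all tested probes: 0 of 39 forkhead probes and 0% of all probes had an adjusted p under 0.05, and the smallest adjusted p was 0.0948. An unadjusted limma p under 0.05 was found for 11 forkhead probes that were lower, against 11.6% of all probes, and for 1 that was higher (FOXQ1), against 12.7%. When limma let the variance follow the mean signal, 7 forkhead probes were lower at an adjusted p under 0.05, against 3.6% of all probes, and 0 were higher, against 3.81%. Among the 7 were both probes of FOXN2, both of FOXN3, and 1 each of FOXP1 and FOXP4. The methods' t-test gave 10 forkhead probes lower and 0 higher before adjustment, against 8.65% and 10.9% of all probes, and 0 after it, against 1 of all probes. For 1 probe taken alone, exact permutation of the 4 arrays (two-sided) has 0.333 as its smallest possible p. Both mimic arrays lay below both control arrays for 18 of the 39 probes, against 30.1% of all probes, and above both for 6, against 30.4%. The 18 include 1 probe, of FOXL2, that was tested only through its detection on the control arrays.

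**Figure D1:**
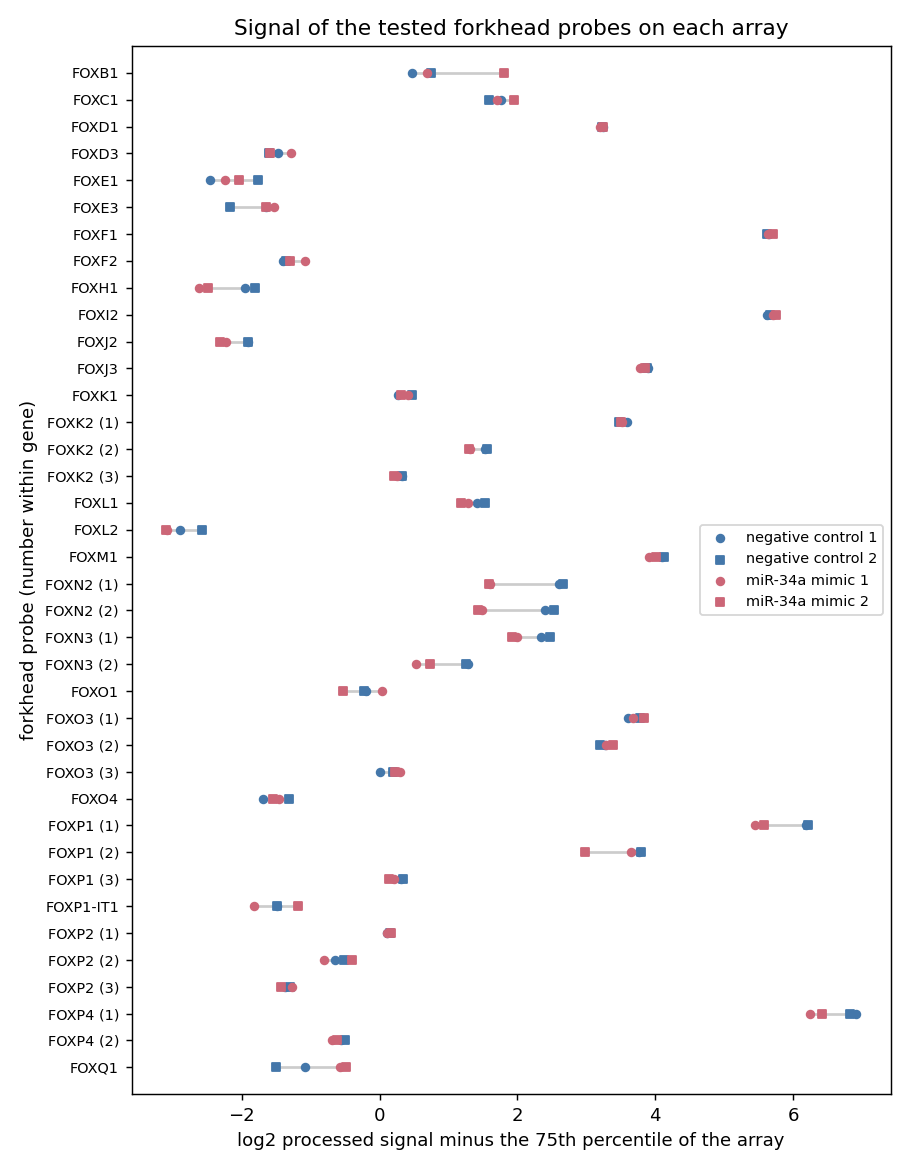
Signal of 38 of the 39 tested forkhead probes on each of the 4 arrays, as log2 processed signal minus the 75th percentile of the array; circles and squares are the replicates, blue the negative control and red the miR-34a mimic, and a grey line joins the lowest and highest array. A number after a gene counts its probes from the strongest signal down. For FOXN2 the mimic arrays stand at 1.43 to 1.60 and the control arrays at 2.41 to 2.66, with a gap between the colors, while for FOXF1 all 4 arrays lie between 5.62 and 5.70.

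FOXN2 had the largest decrease of the forkhead genes. FOXN2 is a forkhead factor of the FOXN class with a little-studied role in transcription, and it was read by 2 probes whose starts are 3772 bases apart on chromosome 2. The first probe (hg19, chr2:48602485-48602544) read 1.60 and 1.59 with the mimic and 2.60 and 2.66 with the control. The second (chr2:48606257-48606316) read 1.48 and 1.43 with the mimic and 2.41 and 2.53 with the control. On both probes the replicates lay close together and the conditions did not overlap. Here and below, SE is limma's, which pools part of the spread over all tested probes. The first probe differed by -1.03 ± 0.06 (SE, n = 2 arrays per condition) on the log2 scale, a 2.04-fold decrease. The second differed by -1.01 ± 0.07, a 2.02-fold decrease. By limma the adjusted p was 0.0948 for each, and with the variance trend it was 0.00586 and 0.00797. The arrays measured bulk RNA, so fewer cells with a transcript and less of it per cell cannot be told apart.

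FOXN3, a repressor that acts in cell cycle checkpoints, was lower on both of its probes, whose starts are 434 bases apart on chromosome 14. The probe that holds ACTGCCA read 1.99 and 1.92 with the mimic and 2.34 and 2.48 with the control. The other probe (chr14:89623539-89623598) read 0.53 and 0.73 with the mimic and 1.28 and 1.25 with the control. The mimic arrays were the low ones on both probes, with no overlap. The differences were -0.45 ± 0.08 and -0.63 ± 0.09 (SE), the second a 1.55-fold decrease, with adjusted limma p of 0.108 and 0.0954, and 0.0269 and 0.0218 with the variance trend. The second probe was under 1.5-fold after normexp background correction (-0.52) and without the first mimic array (-0.54). FOXN1, the thymus factor, was detected on 1 array of 4 and FOXN4 on none, so neither was tested.

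FOXP1, a factor of B cell, heart and neural development, was read by 3 tested probes on chromosome 3. These probes differed in how far apart the conditions lay. The probe with the strongest signal, shown above, is annotated to NM_032682 and read 5.45 and 5.57 with the mimic and 6.19 and 6.21 with the control. Its difference was -0.69 ± 0.07 (SE), a 1.61-fold decrease, with an adjusted limma p of 0.0948, and 0.0102 with the variance trend. The probe annotated to NM_001244808 (chr3:71004934-71004993), 3474 bases from the first, read 3.65 and 2.98 with the mimic and 3.76 and 3.79 with the control. Here the control arrays were close and the mimic arrays 0.66 apart, and the first mimic array was nearer to the controls than to its replicate. Its difference was -0.46 ± 0.25, with an adjusted p of 0.339. The probe annotated to NM_001012505, another transcript variant (chr3:71247038-71247097), lies 238630 bases from the first and read 0.21 and 0.14 with the mimic and 0.31 and 0.34 with the control. Its difference was -0.15 ± 0.06, with an adjusted p of 0.236. All 3 probes were lower on both mimic arrays, and whether the difference itself differs between the probes was not tested. Averaged over the 3 probes the difference of FOXP1 was -0.43. FOXP1-IT1 read -1.82 and -1.18 with the mimic and -1.48 and -1.49 with the control, so that the mimic arrays enclosed the control arrays and the difference was -0.02 ± 0.24.

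FOXP4, which pairs with FOXP1 and FOXP2 in lung and gut development, had a strong probe (chr6:41567638-41567697) at 6.24 and 6.42 with the mimic and 6.91 and 6.82 with the control. The conditions did not overlap, and the difference was -0.54 ± 0.09 (SE), a 1.45-fold decrease, with an adjusted limma p of 0.106, and 0.0213 with the variance trend. The second FOXP4 probe, 416 bases away, read -0.69 and -0.61 with the mimic and -0.56 and -0.51 with the control, a difference of -0.12 ± 0.06 with an adjusted p of 0.339. FOXP2, known for its part in speech and language circuits, had differences of 0.01, -0.01 and -0.02 on its 3 tested probes, with overlapping conditions on each. FOXP3, the factor of regulatory T cells, was not tested: 1 of its 2 probes was detected on 1 array, with its spot on the first control array left out as an outlier, and the other on none.

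**Figure D2:**
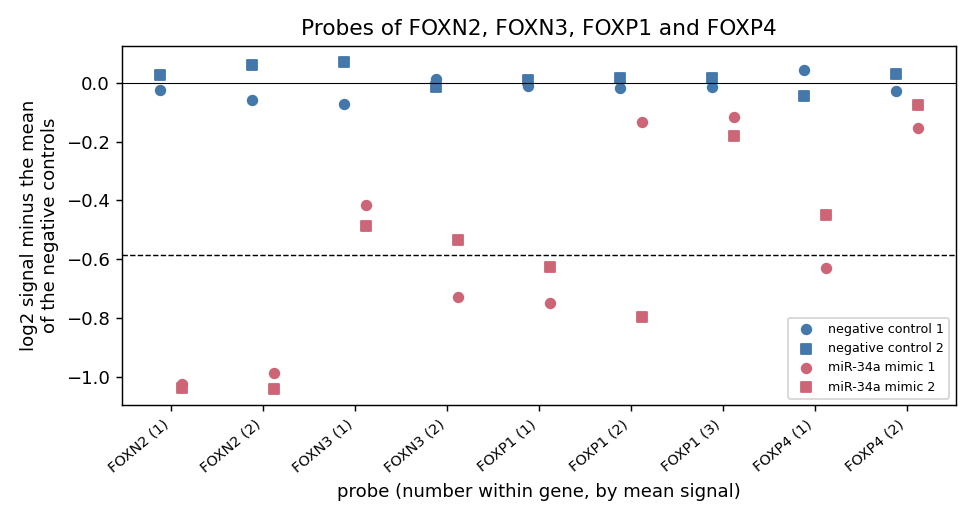
Each array of the 9 tested probes of FOXN2, FOXN3, FOXP1 and FOXP4, as log2 signal minus the mean of the 2 negative control arrays of that probe; the dashed line marks a 1.5-fold decrease and a number after a gene counts its probes from the strongest signal down. Both FOXN2 probes lie near -1 on both mimic arrays (differences -1.03 and -1.01), while the FOXP1 probes lie at -0.69, -0.46 and -0.15 on average.

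FOXP proteins repress genes through the NuRD complex and other corepressors, and 21 such partners were listed, of which 17 had a tested probe. With 1 probe per gene (the strongest), 12 of the 17 had a negative difference, against 51.3% of all genes. By more than 1.5-fold 1 was lower and 1 higher (5.88% each), against 4.83% and 1.96%. Their median difference was -0.02 (all 16192 genes -0.01). HDAC1, the histone deacetylase of NuRD, read 4.73 and 4.74 with the mimic and 5.41 and 5.40 with the control. The mimic arrays were lower by 1.59-fold, with an adjusted limma p of 0.0948 and 0.00669 with the variance trend. The other members with the largest decreases were MTA2 (-0.53, adjusted p 0.167), a NuRD subunit, and RBBP4 (-0.22, adjusted p 0.158), a histone-binding subunit. The largest increases were GATAD2B (0.68, adjusted p 0.131), CHD3 (0.22, adjusted p 0.151) and MTA3 (0.18, adjusted p 0.217), which are NuRD subunits too.

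FOXM1, the activator of late cell cycle genes, was read by 1 probe (NM_202002, chr12:2967322-2967381, minus strand) and the conditions lay close together. It read 3.90 and 4.01 with the mimic and 4.10 and 4.12 with the control. Both mimic arrays, 0.10 apart, were below both control arrays. The difference was -0.16 ± 0.06 (SE), a 1.11-fold decrease, with an adjusted limma p of 0.254 and of 0.12 with the variance trend.

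Of 40 mitotic genes that depend on FOXM1, all 40 had a tested probe and 35 had a negative difference, beside 51.3% of all genes. None of the 40 passed 1.5-fold, against 4.83% of all genes lower and 1.96% higher. An unadjusted limma p under 0.05 was found for 16 that were lower, against 11.9% of all genes, and 1 that was higher, against 13%. None passed adjustment, and with the variance trend 4 were lower, against 3.96% of all genes, and 0 higher, against 4.28%. Their median difference was -0.16, and the middle 50% of all genes lay between -0.17 and 0.14. Both mimic arrays were below both control arrays for 33 of the 40, against 30.6% of all genes, and above both for 2, against 31.3%. The differences were small and mostly in 1 direction. All are genes of cell division, so they are not independent of one another.

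The members with the largest decreases were KIF14, a kinesin of cytokinesis, NDC80, a kinetochore protein, and HMMR, a spindle protein. KIF14 read 0.74 and 0.29 with the mimic and 1.09 and 1.04 with the control, a difference of -0.55 with an adjusted limma p of 0.192. NDC80 read 3.12 and 3.27 with the mimic and 3.64 and 3.70 with the control, a difference of -0.48 with an adjusted p of 0.106. HMMR read 3.08 and 3.09 with the mimic and 3.53 and 3.57 with the control, a difference of -0.47 with an adjusted p of 0.0948, and 0.0111 with the variance trend. In all 3 the mimic arrays were the lower ones, with replicates close together for HMMR and farther apart for KIF14. The largest increases were KIF20A (0.17, adjusted p 0.19), NEK2 (0.14, adjusted p 0.491) and BUB1 (0.08, adjusted p 0.422), a kinesin and mitotic kinases.

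FOXM1 reaches many of these genes through the MuvB complex, which binds the cell cycle genes homology region (CHR), TTTGAA. Promoters were taken from RefSeq (GRCh38.p14) as the 250 bases before to 50 after the start of a gene, and both strands were searched. TTTGAA stood in 23 of the 35 mitotic promoters found there (65.7%), in 3 of 39 promoters of FOXO-responsive genes (7.69%), in 5 of 32 forkhead promoters (15.6%) and in 4212 of 27305 promoters in all (15.4%). The forkhead motif GTAAACA stood in 1 of the 35 mitotic promoters (2.86%), in 4 of the 39 FOXO-responsive promoters (10.3%), in 1 of the 32 forkhead promoters (3.12%) and in 931 of all (3.41%). The 35 and 39 here are the listed genes whose promoter was found, whatever their difference or detection on the arrays. The shares thus describe the lists as drawn up and are not a result of the arrays. A match is a run of letters and not a measured binding site. The windows below, all on the plus strand, are from the mitotic genes with the largest decreases whose promoter holds the CHR before the start. TTTGAA, or TTCAAA where it lies on the other strand, is in capitals. Genes without such a window, KIF14 and NDC80 among them, were passed over. Whether the CHR goes with the size of a difference was not tested. The windows lie at chr5:163460592-163460621 for HMMR and chr16:2429350-2429379 for CCNF, the cyclin F gene. That of CEP55, a gene of cytokinesis, lies at chr10:93496484-93496513.
HMMR promoter: aatgtggggagaTTTGAATTTGAAaccggt
CCNF promoter: gggccgggtgcgTTTGAAaactggggtggg
CEP55 promoter: tactctccgcccTTCAAAggcggcagccaa
HMMR holds a pair side by side, 28 to 23 and 22 to 17 bases before the start, and the single ones lie 85 to 80 bases before the start in CCNF and 116 to 111 in CEP55. CEP55 read 2.56 and 2.62 with the mimic and 2.96 and 2.89 with the control, a difference of -0.34 with an adjusted limma p of 0.111, with the mimic arrays the lower ones. CCNF read -2.17 and -1.57 with the mimic and -1.30 and -1.57 with the control, so that the second arrays were level, and differed by -0.44 with an adjusted p of 0.354.

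The list around MuvB and B-MYB held partners of FOXM1 and also RBL1, RBL2, E2F4, TFDP1 and DYRK1A. These last act with or on MuvB in its repressing form, so the counts mix both kinds. All 12 genes of the list had a tested probe and 8 had a negative difference (66.7%), against 51.3% of all genes. The median was -0.06. None passed 1.5-fold, against 4.83% of all genes lower and 1.96% higher. MYBL2, which encodes B-MYB, read 2.63 and 2.73 with the mimic and 3.15 and 3.05 with the control, a difference of -0.42 with an adjusted limma p of 0.109, and 0.0254 with the variance trend. RBBP4, which was also counted among the FOXP partners, and RBL1 (-0.21, adjusted p 0.177), a pocket protein, followed, and the largest increases were LIN52 (0.10), RBL2 (0.09) and DYRK1A (0.07), with adjusted p of 0.624, 0.649 and 0.497.

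**Figure D3:**
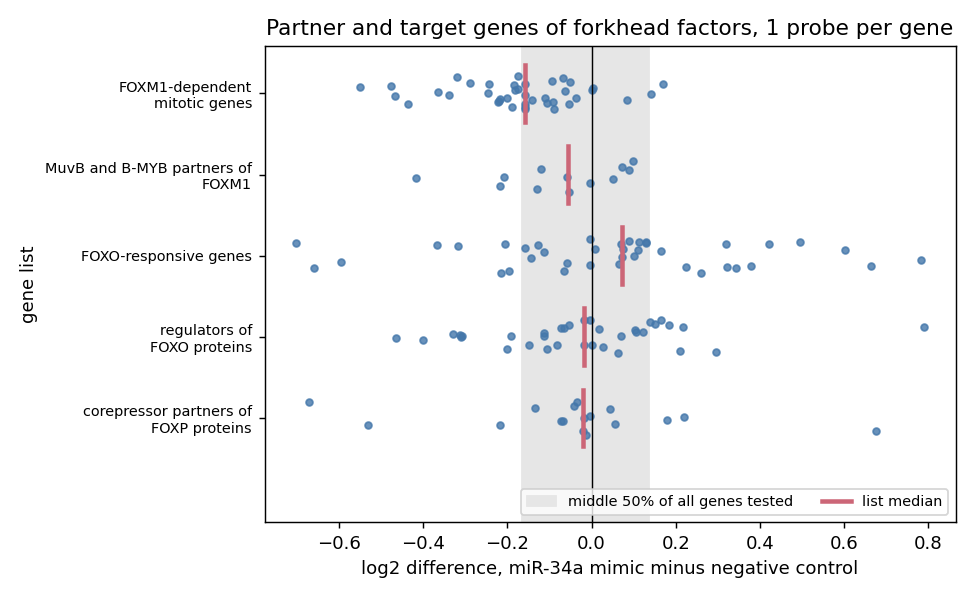
Log2 difference, miR-34a mimic minus negative control, of the genes on 5 lists of forkhead partners, regulators and responsive genes; each point is a gene (its strongest tested probe), the red bar is the median of the list and the grey band the middle 50% of all 16192 genes. The FOXM1-dependent mitotic genes crowd to the left of zero (median -0.16), and the FOXO-responsive genes spread to both sides (median 0.07). The list labeled MuvB and B-MYB partners of FOXM1 also holds RBL1, RBL2, E2F4, TFDP1 and DYRK1A.

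The FOXO genes differed little between the conditions. FOXO3, the most studied member in stress resistance, had differences of 0.06, 0.09 and 0.16 on its 3 tested probes, with adjusted limma p of 0.716, 0.452 and 0.346. The first and second of these probes overlap on the genome, and a near-identical copy of FOXO3 elsewhere in the genome could add to their signal. FOXO1, a regulator of glucose metabolism and differentiation, read 0.04 and -0.53 with the mimic and -0.20 and -0.23 with the control. The mimic arrays stood on either side of the control arrays, and the difference was -0.03 ± 0.22 (SE). FOXO4, on the X chromosome, differed by 0.01 on its tested probe and was not detected on the other.

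FOXO activity is set largely by where the protein lies in the cell, and responsive genes are its usual readout. Of 49 FOXO-responsive genes, 39 had a tested probe. The difference was negative for 16 and positive for 23, against 51.3% of all genes with a negative one. By more than 1.5-fold 3 were lower and 3 higher (7.69% each), against 4.83% and 1.96%. An unadjusted limma p under 0.05 was found for 6 that were lower (15.4%), against 11.9%, and for 9 that were higher (23.1%), against 13%. With the variance trend 4 were lower at an adjusted p under 0.05, against 3.96%, and 6 higher, against 4.28%. The median was 0.07. Members of the list thus stood on both sides of zero. The list was not split by whether FOXO proteins raise or lower a gene. Its signs and median therefore give no direction of FOXO activity.

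TXNIP, an inhibitor of thioredoxin, had the largest decrease of the FOXO-responsive genes and read 4.11 and 4.10 with the mimic and 4.82 and 4.79 with the control. The mimic arrays were 1.63-fold lower, with an adjusted limma p of 0.0948 and 0.00669 with the variance trend. KLF4, a zinc finger factor, and ATG14, an autophagy gene, differed by -0.66 (adjusted limma p 0.0948) and -0.60 (adjusted p 0.226). With the variance trend their adjusted p was 0.126 and 0.243. Both genes read near the lower end of detected signals with the mimic. FBXO32, a ubiquitin ligase subunit of muscle wasting, had the largest increase and read -1.91 and -2.30 with the mimic and -2.91 and -2.87 with the control. The control readings were near the lower end of detected signals. Its difference was 0.78, with an adjusted limma p of 0.124 and of 0.119 with the variance trend. CTGF, a matrix-associated growth factor, differed by 0.66 (adjusted p 0.0954, and 0.0237 with the variance trend). BCL6, a transcriptional repressor, read 1.39 and 1.41 with the mimic and 0.79 and 0.81 with the control, a 1.52-fold increase with an adjusted p of 0.0948 and of 0.013 with the variance trend. For BCL6 the mimic arrays were the high ones, with a gap far wider than that between replicates.

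The regulators of FOXO proteins, the kinases, deacetylases, ubiquitin enzymes and carriers that act on them, were listed as 37 genes, and 35 had a tested probe. The difference was negative for 19 (54.3%), against 51.3% of all genes, and the median was -0.02. By more than 1.5-fold 0 were lower, against 4.83%, and 1 was higher (2.86%), against 1.96%. This was USP7, which removes ubiquitin from FOXO4 and p53, at -1.77 and -2.37 with the mimic and -2.78 and -2.93 with the control (0.79, adjusted limma p 0.178). The USP7 readings with the control were near the lower end of detected signals. SIRT1, the deacetylase of FOXO proteins, read 0.26 and 0.05 with the mimic and 0.51 and 0.46 with the control, a difference of -0.33 with an adjusted p of 0.176. The mimic arrays were the lower ones, and their own gap was about as wide as that to the controls. CREBBP, an acetyltransferase, and TRIB3, an inhibitor of AKT, differed by -0.46 (adjusted p 0.341) and -0.40 (adjusted p 0.1, and 0.0176 with the variance trend). SIRT2, a deacetylase, and AKT2 differed by 0.29 (adjusted p 0.131) and 0.22 (adjusted p 0.151).

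FOXH1, a partner of SMAD proteins in nodal signaling, read -2.62 and -2.49 with the mimic and -1.95 and -1.80 with the control, near the lower end of detected signals. The mimic arrays were the low ones, with no overlap. Its difference of -0.68 ± 0.09, a 1.60-fold decrease, had an adjusted limma p of 0.0954 and of 0.101 with the variance trend, and it was -0.21 after normexp background correction and -0.56 after quantile normalization, both under 1.5-fold.

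Smaller decreases with an unadjusted limma p under 0.05 were found for FOXJ2, FOXL1 and 1 of 3 FOXK2 probes. FOXJ2 read -2.23 and -2.32 with the mimic and -1.91 and -1.90 with the control, a difference of -0.37 ± 0.06 (SE) with an adjusted p of 0.105, and of -0.11 after normexp background correction. FOXL1, a factor of the gut mesenchyme, read 1.28 and 1.19 with the mimic and 1.41 and 1.54 with the control, a difference of -0.24 ± 0.08 with an adjusted p of 0.193. The FOXK2 probe read 1.31 and 1.30 with the mimic and 1.53 and 1.56 with the control, a difference of -0.24 ± 0.05 with an adjusted p of 0.132. On all 3 the mimic arrays were the low ones, and the other probes of FOXK2, a repressor of autophagy genes, differed by -0.02 and -0.09. FOXL2, the ovarian factor, was detected on both control arrays and on neither mimic array. It was kept for testing only through the control arrays, so the filter itself favored a decrease, and no p-value is given for it. It read -3.09 and -3.10 with the mimic and -2.89 and -2.58 with the control, which is 1.28-fold lower. Both mimic readings were above the weakest signal still called detected on their array, so this is the fold as read and not a bound. The difference was -0.36, and -0.12 after quantile normalization. The second FOXL2 probe was not detected on any array.

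FOXQ1, a factor of epithelial plasticity and mucin secretion, had the largest increase. It read -0.57 and -0.49 with the mimic and -1.08 and -1.50 with the control. Both mimic arrays were above both control arrays, which lay 0.42 apart, and the difference was 0.76 ± 0.17 (SE), a 1.69-fold increase, with an adjusted limma p of 0.131 and of 0.0606 with the variance trend. It was 0.40 after normexp background correction and 0.55 without the second control array, both under 1.5-fold. FOXB1, a factor of the developing midbrain and hypothalamus, read 0.68 and 1.81 with the mimic and 0.47 and 0.74 with the control. The second mimic array alone was high, and the first lay between the control arrays. The difference was 0.64 ± 0.44 with an adjusted p of 0.42, and it was 0.08 without the second mimic array, 0.51 without the first control array and 0.54 after normexp background correction.

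The other forkhead genes with a tested probe did not pass 1.5-fold or an unadjusted p under 0.05. FOXF1, a factor of the gut muscle layer and its mesenchyme, read 5.64 and 5.70 with the mimic and 5.64 and 5.62 with the control, so that the conditions overlapped within a narrow range. Its relative FOXF2 differed by 0.19, with both mimic arrays above. FOXE3, a lens factor, differed by 0.32 ± 0.21 (SE) and FOXC1, a factor of eye and vessel development, by 0.16 ± 0.12. FOXD1, FOXD3, FOXE1, FOXI2, FOXJ3 and FOXK1 differed by -0.07 to 0.10. FOXE1, the thyroid factor, had control arrays at -2.45 and -1.76, which enclosed both mimic arrays.

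The filter on dim probes left 17 forkhead genes without a tested probe. The pioneer factors FOXA1 and FOXA3, FOXN1 and FOXP3 were detected on 1 or 2 arrays. The other 13 (FOXA2, FOXB2, FOXC2, FOXD2, FOXD4, FOXD4L2, FOXI1, FOXI3, FOXJ1, FOXN4, FOXR1, FOXR2 and FOXS1) were detected on no array, and they include the liver and endoderm factor FOXA2 and FOXJ1, the factor of motile cilia. FOXD4 and FOXD4L2 belong to a set of near-identical copies, so their probes may not tell them apart. The other FOXA1 probe, spotted 10 times on each array, was not detected on any array. Not being well above background shows that no signal was seen at this sensitivity, not that the transcript is absent.

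**Figure D4:**
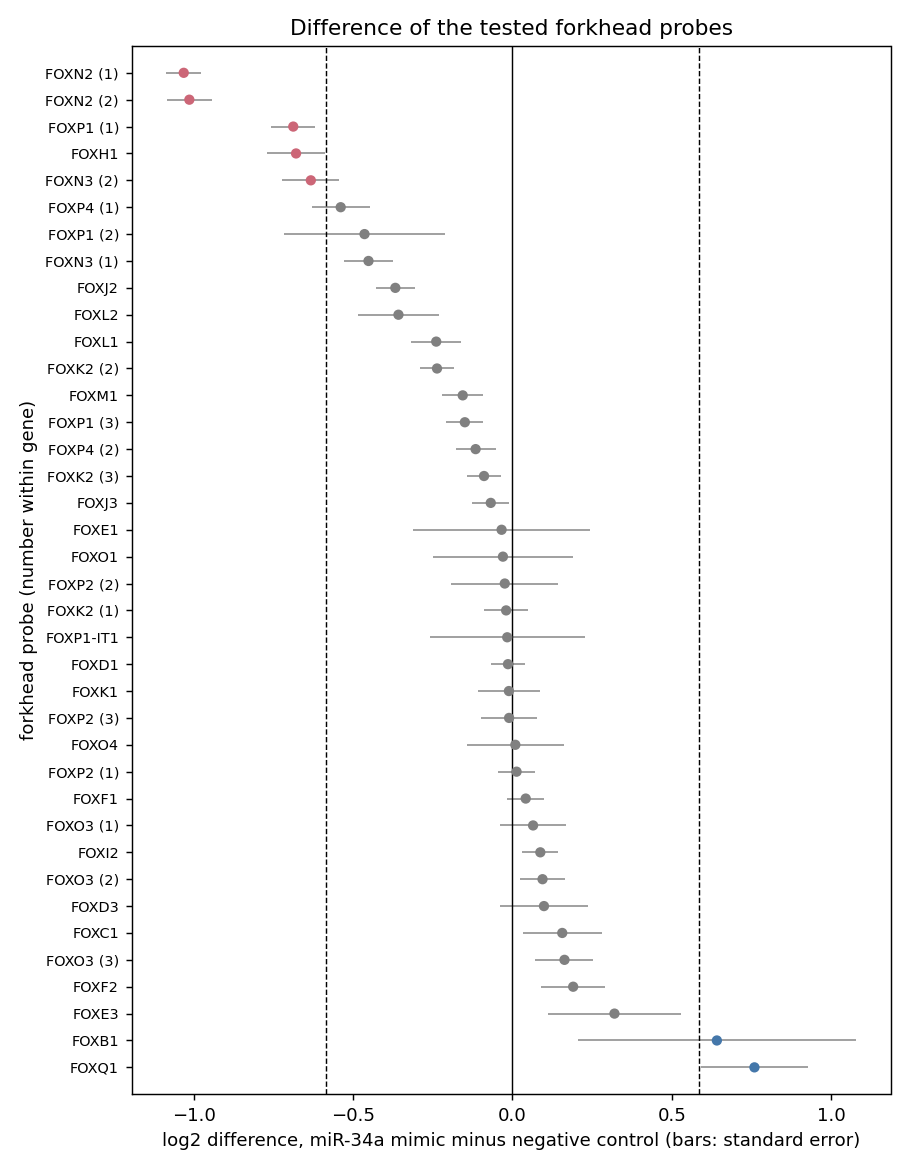
Log2 difference, miR-34a mimic minus negative control, of 38 of the 39 tested forkhead probes in order. Bars are limma's standard error (n = 2 arrays per condition), which pools part of the spread over all tested probes. Dashed lines mark 1.5-fold in each direction, and red and blue points lie beyond them. The left line is passed by 5 of the probes shown, from FOXN2 at -1.03 to FOXN3 at -0.63, and 2 beyond the right one, of which FOXB1 has the widest bar (0.44).

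Counted with 1 probe per gene name, 17 of the 28 tested names had a negative difference (60.7%), against 51.3% of all 16192 genes. The 28 and the 17 include the noncoding FOXP1-IT1. By this count 4 were lower by more than 1.5-fold (FOXN2, FOXP1 and FOXH1 among them), against 4.83%, and 2 higher, against 1.96%. FOXN3 was not among them because its strongest probe differed by 1.37-fold. An unadjusted limma p under 0.05 was found for 8 that were lower, against 11.9%, and 1 that was higher, against 13%. With the variance trend 5 were lower at an adjusted p under 0.05, against 3.96%, and 0 higher, against 4.28%. Both mimic arrays lay below both control arrays for 11 of the 28 (39.3%), against 30.6% of all genes, and above both for 4 (14.3%), against 31.3%. The 17 and the 11 include FOXL2, which was tested only through the control arrays. Of the 7 genes with several tested probes, FOXP2 and FOXO3 lay within 0.2 of zero on every one. FOXN2, FOXN3, FOXP1 and FOXP4 were lower on both mimic arrays on every one. Genes with 1 tested probe did the same, such as FOXF1 and FOXD1 within 0.2 of zero, and FOXM1, FOXJ2 and FOXL1 with both mimic arrays lower.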

How the data were processed

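RNA of GIST-T1 cells was hybridized to one-color Agilent arrays, 2 per condition, on 1 slide in 1 scan, so neither could be a block. The authors deposited scanner intensity values (Agilent Feature Extraction 10.7.3.1), background-subtracted but not scaled between arrays, and a table of the same intensity values within 0.496%, with 0 columns of no mapped sample. Control spots and outlier spots (293 to 424 of 58717 per array) were left out, 0 were saturated, and spots of a probe were averaged. The log2 signal minus the 75th percentile was tested with limma 3.58.1 in R 4.3.3 (data.table version 1.17.8), with Benjamini-Hochberg adjustment over 21474 probes. The number of arrays limits the precision. The 1.5-fold threshold is the study's.

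Of the forkhead probes, 57 matched RefSeq by accession. Positions are the hg19 positions of the array's annotation, and exons were not assigned here. Every probe of FOXP1, FOXN2 and FOXM1, each other forkhead gene past 1.5-fold or an unadjusted p of 0.05, and the 3 largest changes each way per list were named; 1 such forkhead gene and 1 marker are counted but not reported here by name or plotted. CCNF and CEP55 were added for their promoters. Members and lists were chosen with earlier results of these data known. Alternatives were normexp (offset 50), quantile normalization, the percentile over detected probes, other filters, the deposited table, the replicate block, a variance trend, the methods' t-test, each array left out, and the mean over probes. Calculations were tested on simulated data.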

Additional observations from a re-analysis of the deposited data

How the results depend on the processing

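The differences of FOXP1, FOXN2 and FOXM1 kept their sign under every alternative run, from -0.75 to -0.43 for FOXP1 (the last as the mean over its probes), -1.06 to -0.93 for FOXN2 and -0.21 to -0.11 for FOXM1. For FOXP1 and FOXN2 the adjusted limma p passed 0.05 only after normexp background correction (-0.68, adjusted p 0.0223, and -0.93, adjusted p 0.0164) and with the variance trend (-0.69, 0.0102, and -1.03, 0.00586). It ranged over the alternatives from 0.0102 to 0.357 for FOXP1, from 0.00586 to 0.357 for FOXN2, and from 0.12 to 0.6 for FOXM1. Forkhead probes lower by more than 1.5-fold numbered 6, 4 after normexp correction, 5 after quantile normalization and 14 without the filter on dim probes. Probes higher numbered 2, 0 after normexp correction and 3 without the filter. The counts without the filter are out of all 60 forkhead probes, dim ones included. No share of all probes is given for these alternatives, so their counts do not set the forkhead probes apart from the array. Leaving out 1 array gave 6 to 7 lower and 1 to 2 higher probes. The median of the mitotic genes was -0.16, -0.14 after normexp correction and -0.17 to -0.15 without an array. That of the FOXO-responsive genes was 0.072, 0.086 after normexp correction, 0.085 after quantile normalization, 0.064 with the percentile over probes detected on all 4 arrays, 0.0092 without the filter, and 0.063 to 0.081 without an array. The cause was not tested. Same-numbered arrays did not deviate together (correlation -0.03), and with the replicate block FOXN2 had a difference of -1.03 and an adjusted p of 0.222, with 10 forkhead probes lower and 1 higher before adjustment, against 9.96% and 9.54% of all probes, and 0 after it. After normexp correction FOXH1 was -0.21, FOXJ2 -0.11 and FOXQ1 0.40.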
